A study of Homo sapiens with 3 samples.

Results

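The genes of the proteasome and of its assembly were examined in HCT116 cells after silencing of *HOXA5* short RNA. Members were the protein-coding genes whose symbol starts with PSMA to PSMG followed by a number, together with *POMP*, as named by the RefSeq accession of each array probe. The rule found 49 genes, read by 66 probes, among 21612 named genes on the array. Of these, 46 genes were measured, with at least 1 probe well above background on all 3 arrays, out of 12031 genes measured in all. *PSMC3IP* and *PSME3IP1* carry the same letters but have another role than that of a subunit or assembly factor, and these 2 genes were kept apart.

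The proteasome is the main protease of the cytosol and nucleus for proteins tagged with ubiquitin. Its barrel-shaped core has outer rings of alpha subunits, which control entry, and inner rings of beta subunits, of which PSMB5, PSMB6 and PSMB7 cut peptide bonds. A regulatory particle of ATPases and non-ATPase subunits binds ubiquitin chains, unfolds the substrate and feeds it into the core. Interferon-gamma induces other catalytic subunits (PSMB8, PSMB9 and PSMB10), which take the places of PSMB5, PSMB6 and PSMB7 in the immunoproteasome, and the activator PSME1-PSME2, and both favour peptides for class I antigen presentation. Dedicated chaperones, among them POMP and PSMG1 to PSMG4, build the core.

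The cells were HCT116, an established line of human colon cancer. Treatment lasted 48 h and used control siRNA, siRNA #7 or siRNA #8, of which the latter both target the exon junction of *HOXA5* short RNA, a spliced transcript that lacks the first coding exon. RNA (400 ng) from each condition was hybridised to 1 one-colour Agilent array, so the conditions had no replicate and no p-value can be given for a single siRNA. The names of the deposited spot files number the siRNAs differently from the labels. The labels were followed, and each value given for siRNA #7 or siRNA #8 rests on that assignment. Total RNA of the culture was measured, and fewer cells of a kind cannot be told apart from less RNA per cell.

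The siRNAs are shown because both comparisons rest on them and they are close to each other. They overlap by 17 of their 21 bases, given in capitals, and siRNA #8 is shifted against siRNA #7 along the target.
siRNA #7: gagaAACUGAAAGACAACAUA
siRNA #8: AACUGAAAGACAACAUAggcg

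Promoters are shown for the members furthest from control siRNA that passed 1.5-fold in nearly every setting of the processing (*PSMB9*, *PSMG4* and *POMP*) and, for comparison, for *PSMB10*. Each covers 250 bases before to 50 bases after the start on the strand of the gene (RefSeq, GRCh38.p14), with capitals at matches on either strand to the antioxidant response element core TGACNNNGC, the CCAAT box, the interferon-stimulated response element core (GAAA, any 2 bases, GAAA) and the gamma interferon activation site core TTCNNNGAA.
PSMB9, chr6:32853942-32854241, + strand: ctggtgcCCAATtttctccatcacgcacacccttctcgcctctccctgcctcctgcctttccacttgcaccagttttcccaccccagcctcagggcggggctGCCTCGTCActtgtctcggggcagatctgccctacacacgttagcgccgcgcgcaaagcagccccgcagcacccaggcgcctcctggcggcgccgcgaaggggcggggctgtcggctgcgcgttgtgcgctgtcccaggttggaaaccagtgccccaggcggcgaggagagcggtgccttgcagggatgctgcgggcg
PSMG4, chr6:3258697-3258996, + strand: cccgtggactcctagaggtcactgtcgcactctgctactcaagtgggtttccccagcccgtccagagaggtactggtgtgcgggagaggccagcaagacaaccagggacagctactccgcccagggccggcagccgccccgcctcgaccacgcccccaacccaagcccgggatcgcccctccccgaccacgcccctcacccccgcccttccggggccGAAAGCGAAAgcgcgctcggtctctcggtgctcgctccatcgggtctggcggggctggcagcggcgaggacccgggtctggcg
PSMB10, chr16:67936801-67937100, - strand: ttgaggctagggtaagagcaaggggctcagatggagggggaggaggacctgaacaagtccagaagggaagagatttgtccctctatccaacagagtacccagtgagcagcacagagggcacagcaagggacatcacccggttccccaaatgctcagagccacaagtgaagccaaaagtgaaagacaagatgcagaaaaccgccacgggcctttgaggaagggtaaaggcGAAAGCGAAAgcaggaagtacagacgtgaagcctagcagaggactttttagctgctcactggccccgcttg
POMP, chr13:28658880-28659179, + strand: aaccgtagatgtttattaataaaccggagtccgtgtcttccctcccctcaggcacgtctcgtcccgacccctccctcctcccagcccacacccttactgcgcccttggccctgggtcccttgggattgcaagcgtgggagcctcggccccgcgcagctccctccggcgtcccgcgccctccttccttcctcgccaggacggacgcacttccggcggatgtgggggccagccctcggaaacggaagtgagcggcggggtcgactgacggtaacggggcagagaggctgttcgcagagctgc

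The table held a promoter for 43 of the 49 members. The interferon-stimulated core lay in 7 of the 43 (16.3%), against 4.16% of all 15843 protein-coding genes with a promoter. The 7 genes were *PSMA4*, *PSMB4*, *PSMB8*, *PSMB10*, *PSME1*, *PSME2* and *PSMG4*. In 5 of them, *PSMB8*, *PSMB10*, *PSME1*, *PSME2* and the core chaperone gene *PSMG4*, the match had the same letters, GAAAGCGAAA, which stood in the promoters of 28 of all genes (0.177%), these 5 included. These letters were searched after the matches had been seen. The antioxidant core lay in 15 members (34.9% against 17.9% of all genes), the CCAAT box in 20 (46.5% against 42.1%) and the gamma interferon core in 8 (18.6% against 8.98%). A match is a run of letters and not a site shown to be bound. *PSMB9* held no interferon-stimulated core in this window. It lies head to head with *TAP1*, which encodes a chain of the peptide transporter of antigen presentation, with 488 bases between the 2 starts.

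Levels are given as the background-subtracted intensity divided by the 75th percentile of the intensity on the same array (the scaled level), from the brightest probe of a gene above background on all arrays, and can be compared between arrays for a gene but not between genes. This percentile was an intensity of 52.8 for control siRNA, 42.1 for siRNA #7 and 42.8 for siRNA #8. Of the epithelial markers 6 of 7 were measured, with summed scaled levels of 1258, 1424 and 1317 on the control siRNA, siRNA #7 and siRNA #8 arrays, and *VIL1* was not. No haematopoietic (0 of 4) or endothelial (0 of 3) marker and 1 of 4 fibroblast markers, *COL1A1* (0.911, 0.671 and 0.839), passed on all arrays. The *HOXA5* probe gave 1.61 with control siRNA, 1.25 after siRNA #7 and 1.37 after siRNA #8, a log2 ratio of −0.36 ± 0.25 and −0.23 ± 0.26, and whether this probe reads the short RNA was not tested. The error after ± is the spot-to-spot SD of a ratio from probes printed on 10 spots. For a probe averaged over several spots it is the error of their mean, and is smaller for that reason. This error covers spotting and scanning and not the spread between cultures.

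Few proteasome genes reached 1.5-fold from control siRNA. The scaled level of the 46 genes ranged from 1.501 to 400.3 (median 49.5) with control siRNA, from 0.695 to 370.5 (median 44.5) with siRNA #7 and from 1.44 to 452.7 (median 49.0) with siRNA #8. For 24 of the 46 genes both log2 ratios lay between −0.25 and 0.25. The share of all genes within these limits is not given, so this count shows nothing particular to the members. A ratio of at least 1.5-fold was taken as a call. With siRNA #7 no member was higher, where 7.56% of all measured genes were, and 1 was lower (2.17%), *POMP*, where 6.92% of all genes were. With siRNA #8 no member was higher (7.79% of all genes) and 5 were lower (10.9% of the members against 10.2% of all genes), namely *PSMG4*, *PSMB9*, *PSMD9*, *PSMA1* and *PSMD1*. No member passed with both siRNAs, where 3.03% of all genes were higher and 1.66% lower. The share of members called with siRNA #8 was thus near that of all genes. A fit with limma that joined both siRNA arrays against the control array called 0 of the 60 member probes (adjusted p under 0.05) and 0.011% of all probes, and 0 member probes had an unadjusted p under 0.05, beside 664 of all 18121 probes, with a lowest adjusted p of 0.9998 for the members.

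The median log2 ratio of the members was −0.11 with siRNA #7 and −0.07 with siRNA #8, beside 0.01 and 0.01 over all genes measured. With siRNA #7, 32 members lay below 0 (69.6%, against 48.4% of all genes), and with siRNA #8, 30 did (65.2% against 49.2%). Both comparisons use the same control siRNA array, so their values stand side by side and are not independent of each other. Scaling on the spike-in probes moved the median of all genes to −0.31 with siRNA #7 and −0.23 with siRNA #8. Relative to all genes, the members' median was −0.12 and −0.08, a difference that scaling by 1 factor for each array leaves as it is by construction, and it was −0.23 and −0.16 with normexp.

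**Figure D1:**
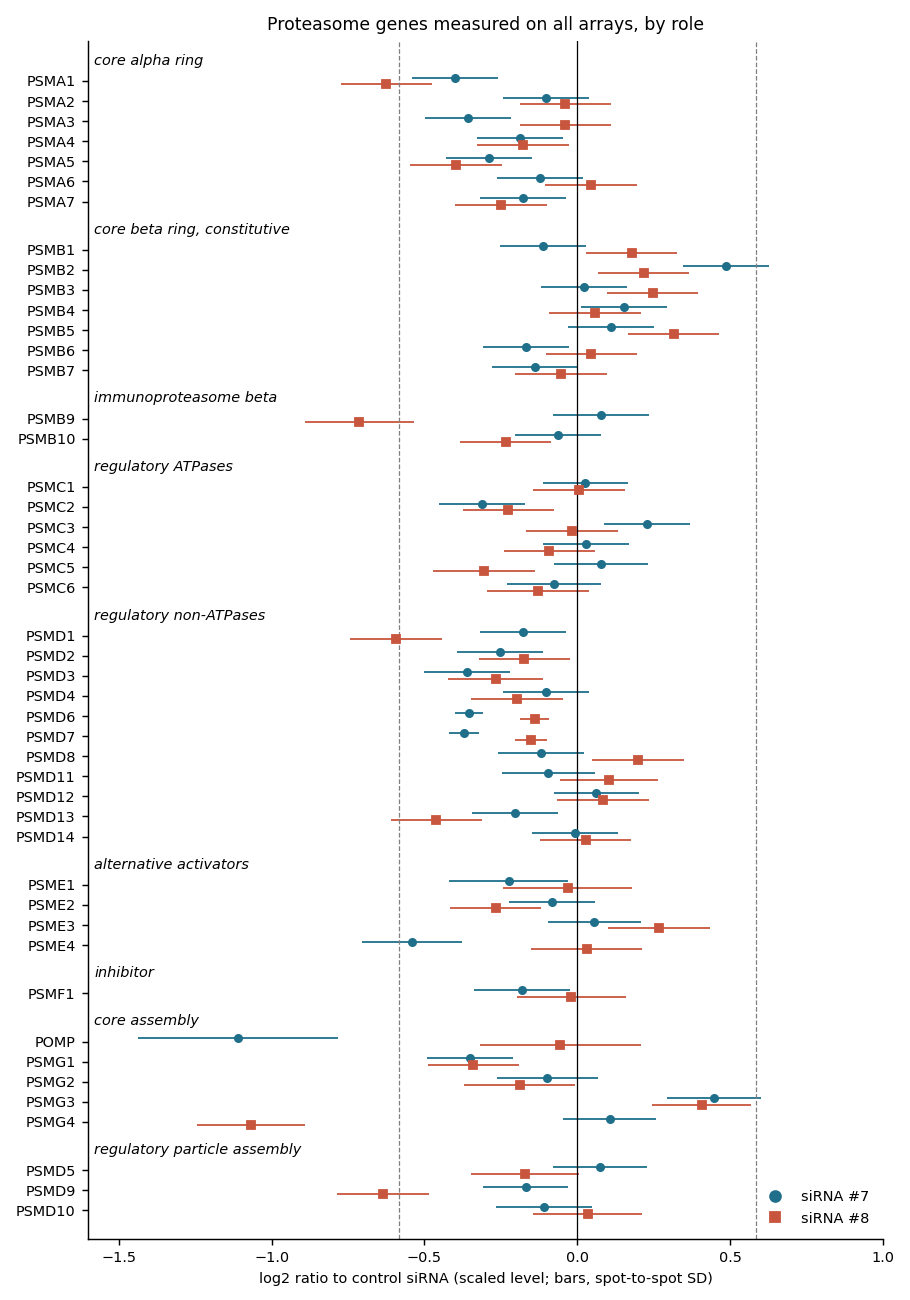
Log2 ratio of the scaled level to control siRNA for the 46 measured proteasome genes, grouped by role, with siRNA #7 (circles) and siRNA #8 (squares); bars are the spot-to-spot SD and dashed lines mark 1.5-fold. All alpha ring genes lie left of 0 with siRNA #7, the constitutive beta ring genes lie around or right of 0, and *POMP* with siRNA #7 and *PSMG4* with siRNA #8 stand furthest left.

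Of the alpha ring, which gates the core, 1 gene passed 1.5-fold by its brightest probe, *PSMA1* with siRNA #8, where 10.2% of all genes were lower. All 7 measured genes, *PSMA1* to *PSMA7*, had a ratio below 0 with siRNA #7 (median −0.19, from −0.40 to −0.10), and 6 of 7 had with siRNA #8 (median −0.18, from −0.62 to 0.05). Relative to all genes these medians were −0.20 and −0.18, and of all genes 48.4% and 49.2% lay below 0. The median stayed below 0 with both siRNAs under each of the 9 other settings of the processing, but with siRNA #8 it was −0.04 when the probes of each gene were averaged, and 4 of 7 genes lay below 0 with the 75th percentile over detected probes and with neighbouring spots removed. *PSMA8*, the alpha subunit of male germ cells, stayed below the background limit on all 3 arrays.

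*PSMA1* was the lowest of the ring. Its scaled level was 98.8 with control siRNA, 74.9 after siRNA #7 and 64.1 after siRNA #8. Both siRNA arrays lay below the control array, by a log2 ratio of −0.40 ± 0.14 and −0.62 ± 0.15. A dim second probe of *PSMA1* (scaled levels 0.318, 0.248 and 0.633) gave −0.36 and 0.995, so that the mean of both probes with siRNA #8 was 0.19. *PSMA5* followed with 89.4, 73.2 and 67.9 (−0.29 ± 0.14 and −0.40 ± 0.15). *PSMA6* was the highest, with 150.6, 138.5 and 155.4, and its ratios of −0.12 and 0.05 were within the spot-to-spot SD.

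The beta ring of the constitutive core had medians above 0. All 7 genes, *PSMB1* to *PSMB7*, were measured, and the median ratio was 0.02 with siRNA #7 and 0.18 with siRNA #8. With siRNA #7 3 of the 7 genes lay below 0, and with siRNA #8 only *PSMB7* did, where 48.4% and 49.2% of all genes did. These small values depend on the scaling, since the median with siRNA #7 was below 0 after quantile normalization (−0.01), scaling on the array median (−0.05), removal of neighbouring spots (−0.06), normexp (−0.26) and spike-in scaling (−0.31), and that with siRNA #8 after normexp (−0.03) and spike-in scaling (−0.06). *PSMB2*, a structural subunit of the ring, was the highest at 48.5 with control siRNA, 67.9 after siRNA #7 and 56.4 after siRNA #8. Its 2 probes gave 0.49 and 0.28 with siRNA #7, and 0.22 and 0.07 with siRNA #8. None of the ring reached 1.5-fold.

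None of the catalytic subunits of the constitutive core lay further than 0.32 from control siRNA on the log2 scale. *PSMB5*, the chymotrypsin-like subunit, measured 157.0, 169.5 and 195.4 with control siRNA, siRNA #7 and siRNA #8, and the ratio of 0.32 ± 0.15 with siRNA #8 was the highest of the ring for that siRNA. *PSMB6*, the caspase-like subunit, measured 150.8, 134.1 and 155.7. *PSMB7*, the trypsin-like subunit, measured 115.8, 105.2 and 111.6. The ratios of *PSMB6* (−0.17 and 0.05) and *PSMB7* (−0.14 and −0.05) were close in size to the spot-to-spot SD of 0.14 and 0.15 or smaller.

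Of the immunoproteasome subunits, *PSMB9* passed 1.5-fold with siRNA #8 and not with siRNA #7. Its scaled level was 6.46 with control siRNA, 6.82 after siRNA #7 and 3.94 after siRNA #8. The siRNA #7 array lay slightly above the control array and the siRNA #8 array well below it. The ratio was 0.08 ± 0.16 with siRNA #7 and −0.71 ± 0.18 with siRNA #8, a 1.64-fold lower level. *PSMB10* measured 64.5, 61.7 and 54.9, with ratios of −0.06 ± 0.14 and −0.23 ± 0.15. *PSMB8* was well above background on none of the arrays (intensities 2.07, 5.33 and 5.55), and no ratio is given. The same held for *PSMB11*, the thymus subunit.

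Each immunoproteasome subunit was set against the constitutive subunit it replaces. The difference of the log2 ratios, *PSMB9* minus *PSMB6*, was 0.25 ± 0.21 with siRNA #7 and −0.76 ± 0.23 with siRNA #8. *PSMB10* minus *PSMB7* was 0.07 ± 0.20 and −0.18 ± 0.21. The mean of these 2 pairs was 0.16 with siRNA #7 and −0.47 with siRNA #8. The pair of *PSMB8* and *PSMB5* could not be formed. When the deviation of neighbouring spots was removed from each spot, the mean with siRNA #8 was −0.21, while *PSMB9* itself was at −0.71.

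**Figure D2:**
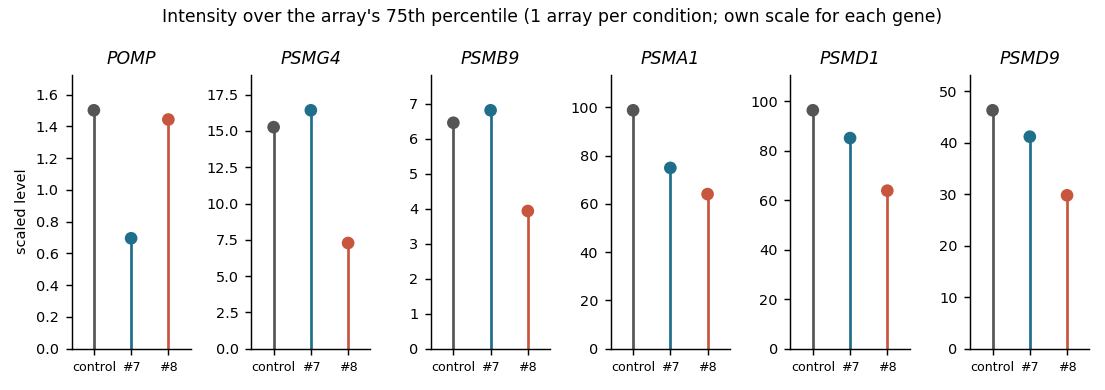
Scaled level (intensity over the 75th percentile of the array) of the 6 members at least 1.5-fold from control siRNA, with 1 point for each array and an axis from 0 for each gene. *POMP* is low on the siRNA #7 array alone (0.695 against 1.501 and 1.44), *PSMG4* and *PSMB9* are low on the siRNA #8 array alone, and *PSMA1*, *PSMD1* and *PSMD9* step down from control siRNA over siRNA #7 to siRNA #8.

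The regulatory particle was measured in full, with 17 of 17 genes. Its 6 ATPase genes, *PSMC1* to *PSMC6*, which form the unfolding ring, had a median ratio of 0.03 with siRNA #7 and −0.11 with siRNA #8, and none reached 1.5-fold. The median with siRNA #7 was below 0 after scaling on the array median (−0.04), removal of neighbouring spots (−0.07), normexp (−0.21) and spike-in scaling (−0.30). *PSMC3* was the highest at 35.3, 41.4 and 34.9 with control siRNA, siRNA #7 and siRNA #8 (0.23 ± 0.14 and −0.02 ± 0.15). *PSMC2* was the lowest at 28.7, 23.1 and 24.5 (−0.31 ± 0.14 and −0.23 ± 0.15).

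The 11 non-ATPase genes had a median of −0.18 with siRNA #7 and −0.15 with siRNA #8. By its brightest probe 1 of them, *PSMD1*, passed 1.5-fold with siRNA #8, where 10.2% of all genes were lower. Of the 11 genes, 10 lay below 0 with siRNA #7 and 7 with siRNA #8, where 48.4% and 49.2% of all genes did. Both medians stayed below 0 under the 9 other settings. *PSMD1*, a large scaffold subunit of the base, measured 96.4 with control siRNA, 85.2 after siRNA #7 and 63.9 after siRNA #8. The order was the same as for *PSMA1*, and the ratios were −0.18 ± 0.14 and −0.59 ± 0.15. A second probe of *PSMD1* gave −0.38 and −0.29, and the value with siRNA #8 was −0.26 once neighbouring spots were taken into account. *PSMD12*, a lid subunit, was the highest by mean ratio at 31.3, 32.7 and 33.2.

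*PSMD6* and *PSMD7*, subunits of the lid, were printed on 10 spots each and were thus the best measured of the non-ATPases. *PSMD6* gave 23.6 ± 0.800 (SD over 9 spots) with control siRNA, 18.5 ± 2.05 (9 spots) with siRNA #7 and 21.5 ± 1.06 (10 spots) with siRNA #8. *PSMD7* gave 54.4 ± 2.57 (9 spots), 42.0 ± 1.34 (7 spots) and 49.0 ± 0.902 (7 spots). For *PSMD6* the spots ranged from 13.6 to 20.8 on the siRNA #7 array, against 22.4 to 24.99 on the control array. For *PSMD7* they ranged from 40.4 to 43.6 against 51.9 to 59.2. How many of all probes printed on 10 spots were as far apart is not given, so the ranges show nothing particular to these genes. The ratios with siRNA #7 were −0.35 ± 0.05 and −0.37 ± 0.05, and with siRNA #8 −0.14 ± 0.05 and −0.15 ± 0.05. Here the error is that of the mean of the spots, unlike that of genes read by 1 spot. Spots of 1 array share its RNA and are no replicates of the treatment.

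The ubiquitin receptor gene *PSMD4* and the deubiquitinase gene *PSMD14* showed little difference. *PSMD4* measured 105.0, 97.7 and 91.6 on the control siRNA, siRNA #7 and siRNA #8 arrays, with ratios of −0.10 ± 0.14 and −0.20 ± 0.15. *PSMD14* measured 85.2, 84.8 and 86.9, with ratios of −0.01 ± 0.14 and 0.03 ± 0.15.

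The alternative activators, which open the core without ATP, had no member past 1.5-fold among 4 measured. *PSME4*, the large nuclear activator, measured 3.35 with control siRNA, 2.31 after siRNA #7 and 3.43 after siRNA #8. It was lower on the siRNA #7 array alone (−0.54 ± 0.16 and 0.03 ± 0.18), and passed 1.5-fold with siRNA #7 after scaling on the array median (−0.61). A dimmer probe gave −0.52 and −0.54. The interferon-induced pair differed little, with 2.10, 1.79 and 2.05 for *PSME1* (−0.22 ± 0.19 and −0.03 ± 0.21) and 156.5, 147.8 and 130.1 for *PSME2* (−0.08 ± 0.14 and −0.27 ± 0.15). *PSME3*, the nuclear homologue, measured 13.7, 14.2 and 16.5 (0.06 ± 0.15 and 0.27 ± 0.17). *PSMF1*, which encodes an inhibitor of the core in vitro, measured 5.22, 4.61 and 5.15 (−0.18 ± 0.16 and −0.02 ± 0.18).

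By the brightest probe of each gene, the largest differences among the members were in the assembly of the core. *POMP*, the maturation protein that guides the beta subunits, measured 1.501 with control siRNA, 0.695 after siRNA #7 and 1.44 after siRNA #8. The siRNA #7 array alone was low. The ratio was −1.11 ± 0.33 with siRNA #7, a 2.16-fold lower level, and −0.06 ± 0.26 with siRNA #8. Its only probe was dim (intensities 79.2, 29.3 and 61.8), and the ratio was −0.46, no longer past 1.5-fold, with the normexp background correction.

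*PSMG4*, the partner of PSMG3 in a chaperone dimer for the alpha ring, was low with siRNA #8 in contrast. It measured 15.3 with control siRNA, 16.4 after siRNA #7 and 7.28 after siRNA #8. The siRNA #8 array was the low one, and the other two lay close together. The ratio was 0.11 ± 0.15 with siRNA #7 and −1.07 ± 0.18 with siRNA #8, a 2.10-fold lower level. Over the 9 other settings, of which averaging probes and probes above background on any array could not change it, the siRNA #8 value lay between −1.32 and −1.01. A second probe of *PSMG4* was above background on none of the arrays.

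The other chaperones of the core did not reach 1.5-fold. *PSMG3* measured 16.3, 22.2 and 21.6 and was above control siRNA on both arrays (0.45 ± 0.15 and 0.41 ± 0.16). The ratios turned to −0.07 and −0.16 once neighbouring spots were taken into account, and that with siRNA #8 was −0.07 with normexp. The probe of *PSMG3* lies in the last column of the array. *PSMG1* measured 94.3, 73.9 and 74.5 and was below control siRNA on both (−0.35 ± 0.14 and −0.34 ± 0.15). *PSMG2*, which pairs with PSMG1, measured 2.51, 2.34 and 2.20 (−0.10 ± 0.16 and −0.19 ± 0.18).

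Of the chaperones of the regulatory particle, *PSMD9* measured 46.3 with control siRNA, 41.2 after siRNA #7 and 29.8 after siRNA #8. Its ratios were −0.17 ± 0.14 and −0.64 ± 0.15. The probe lies in column 1 of the array, and the ratio with siRNA #8 was 0.11 once neighbouring spots were taken into account. *PSMD10*, an ankyrin repeat chaperone also called gankyrin, measured 6.12, 5.68 and 6.27 (−0.11 ± 0.16 and 0.03 ± 0.18), and *PSMD5* had ratios of 0.07 ± 0.15 and −0.17 ± 0.18.

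**Figure D3:**
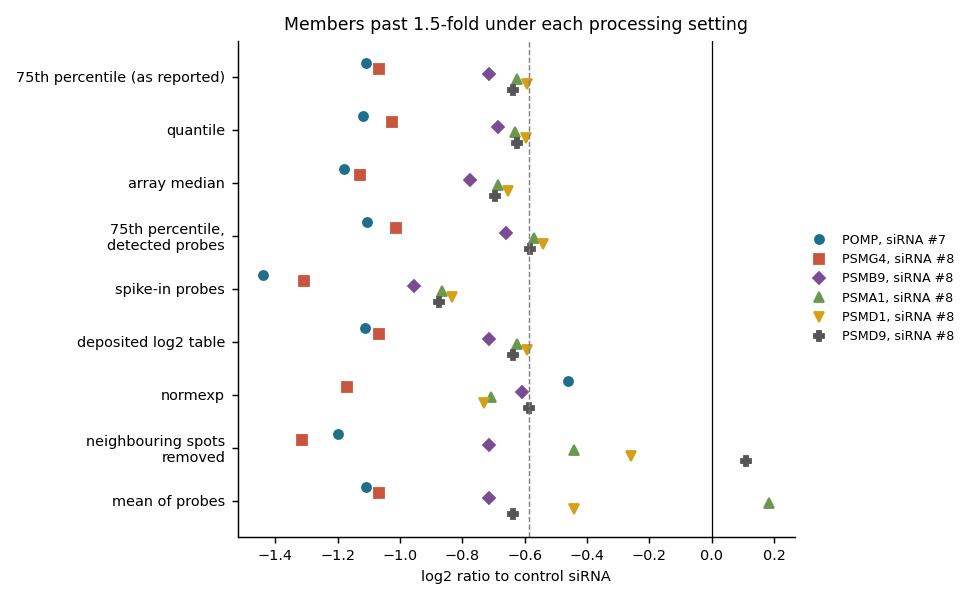
Log2 ratio to control siRNA of the 6 members past 1.5-fold (dashed line) under the reported processing and 8 alternatives, for the siRNA with which each passed. *PSMG4* and *PSMB9* stay left of the line in every row, *POMP* does except with normexp (−0.46), and *PSMA1*, *PSMD1* and *PSMD9* cross it in several rows. The mean of probes cannot differ from the reported value for *PSMG4*, *PSMB9*, *POMP* and *PSMD9*, which have 1 passing probe.

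Comparing siRNA #8 directly with siRNA #7 leaves out the control array. The members' median log2 ratio was 0.02, beside −0.01 over all genes. *POMP* was the 1 member at least 1.5-fold higher (1.05 ± 0.31), where 8.89% of all genes were, and *PSMG4* (−1.17 ± 0.16) and *PSMB9* (−0.79 ± 0.16) were the 2 lower, where 11.6% of all genes were. *PSMG4* and *PSMB9* passed under each of the 9 other settings, and *POMP* under all but normexp. Each of these genes has 1 passing probe, so averaging probes and taking probes above background on any array could not change its value. The deposited values are close to the reported scaling. *PSME4* was higher past 1.5-fold with quantile normalization (0.60), the 75th percentile over detected probes (0.62) and spike-in scaling (0.66).

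For 12 members several probes were above background on all arrays, and the other 34 rested on 1. The probes lay within 0.25 of each other with both siRNAs in 4 of the 12. *PSMD2*, the second scaffold subunit of the base, showed the closest values, with −0.25 and −0.24 for siRNA #7 and −0.17 and −0.18 for siRNA #8. In 5 members, *PSMA1*, *PSMC1*, *PSMC2*, *PSMD10* and *PSME4*, the probes differed by at least 0.5 with opposite signs. *PSMC1* had a bright probe at 118.3, 120.6 and 118.8 on the control siRNA, siRNA #7 and siRNA #8 arrays (0.03 and 0.01) and a second at 11.6, 7.80 and 5.46 (−0.57 ± 0.15 and −1.08 ± 0.18). The second probe was thus past 1.5-fold with siRNA #8 where the first showed no difference beyond its spot-to-spot SD. The second probes of *PSMC2* (0.44 ± 0.40 and 0.07 ± 0.41) and *PSMD10* (0.53 ± 0.40 and 0.87 ± 0.35) were well above background on all arrays but dim, with intensities of 32.7, 35.4 and 27.9 and of 27.5, 31.7 and 40.6 on the control siRNA, siRNA #7 and siRNA #8 arrays. *PSMF1* had 4 probes, of which 3 gave −0.40 to −0.18 and a dim one −1.17 ± 0.40 with siRNA #7.

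**Figure D4:**
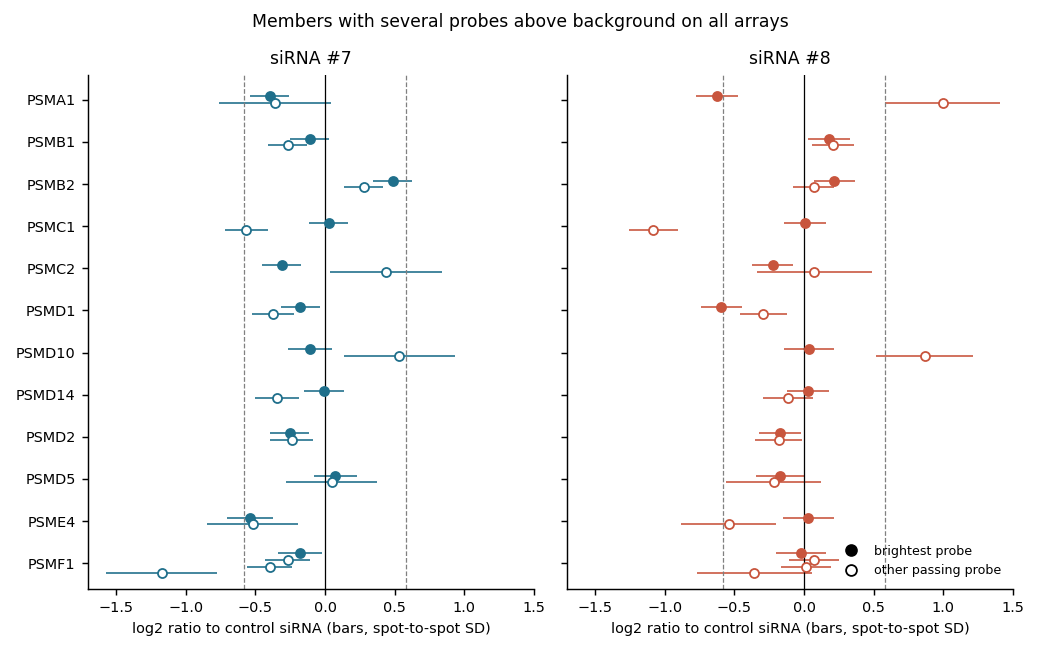
Log2 ratio to control siRNA of each probe above background on all arrays, for the 12 members with several such probes; filled points are the brightest probe, open points the others, bars the spot-to-spot SD and dashed lines 1.5-fold. The probes of *PSMD2* lie on each other, while those of *PSMA1* and *PSMC1* with siRNA #8 lie on different sides of the dashed line.

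Members with and without these promoter letters were set side by side. Among the measured members with a promoter, the 15 with the antioxidant core had a median ratio of −0.10 with siRNA #7 and −0.19 with siRNA #8, and the 25 without it −0.11 and −0.04. The 6 with the interferon-stimulated core had −0.07 and −0.21, and the 34 without it −0.11 and −0.07. The 19 with the CCAAT box had −0.11 and −0.04, and the 21 without it −0.10 and −0.13. The 6 with the gamma interferon core had −0.04 and −0.07, and the 34 without it −0.11 and −0.13. Of the genes that share GAAAGCGAAA, *PSMG4* was at −1.07 with siRNA #8, whereas *PSME2*, *PSMB10* and *PSME1* were at −0.27, −0.23 and −0.03. No test was made of these medians.

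Genes that work with the proteasome were taken from lists of 30 genes, of which 25 were measured. With siRNA #7 1 was at least 1.5-fold higher, *ERAP2*, where 7.56% of all genes were, and 1 was lower, *RAD23B*, where 6.92% were. With siRNA #8 none was higher (7.79% of all genes) and 3 were lower (10.2% of all genes), and none of the 25 passed with both siRNAs. *RAD23B*, a shuttle factor that carries ubiquitinated proteins to the proteasome, measured 3.40, 2.003 and 2.36 on the control siRNA, siRNA #7 and siRNA #8 arrays (−0.76 ± 0.19 and −0.53 ± 0.18), and a second probe gave 0.10 and −0.44. *NFE2L1*, a transcription factor for proteasome genes, measured 26.6, 24.95 and 25.1 (−0.09 ± 0.14 and −0.08 ± 0.15).

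Class I antigen processing and interferon signalling was the list with most genes past 1.5-fold with siRNA #8. Of 7 measured genes 3 were lower, *TAP2*, *TAPBP* and *ERAP1*, where 10.2% of all genes were. All 3 are genes of antigen processing, and *IRF1*, an interferon regulatory factor, did not pass (−0.11 ± 0.25 and −0.45 ± 0.26). The median of the list with siRNA #8 was −0.45, but −0.24 with normexp and −0.23 with neighbouring spots removed. The genes of this list are named here after their values were seen. *TAP2*, the partner chain of TAP1, measured 4.05, 3.04 and 1.38 (−0.41 ± 0.16 and −1.56 ± 0.21). *TAPBP*, which encodes tapasin, the protein that holds class I molecules at the transporter, measured 19.3, 15.0 and 6.92 (−0.36 ± 0.15 and −1.48 ± 0.18), and a second probe gave −0.05 and −0.83. Like *PSMB9*, both were lowest on the siRNA #8 array. *ERAP1*, a peptide-trimming enzyme of the endoplasmic reticulum, was dim at 0.702, 0.561 and 0.437 (−0.32 ± 0.40 and −0.68 ± 0.41), and its homologue *ERAP2* was dim at 0.290, 0.579 and 0.273 (0.997 ± 0.40 and −0.09 ± 0.41). *B2M*, the light chain of class I molecules, measured 54.6, 56.1 and 59.3 (0.04 ± 0.04 and 0.12 ± 0.05). *TAP1*, the head-to-head neighbour of *PSMB9*, measured 20.6, 16.02 and 15.7 (−0.36 ± 0.15 and −0.40 ± 0.17).

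**Figure D5:**
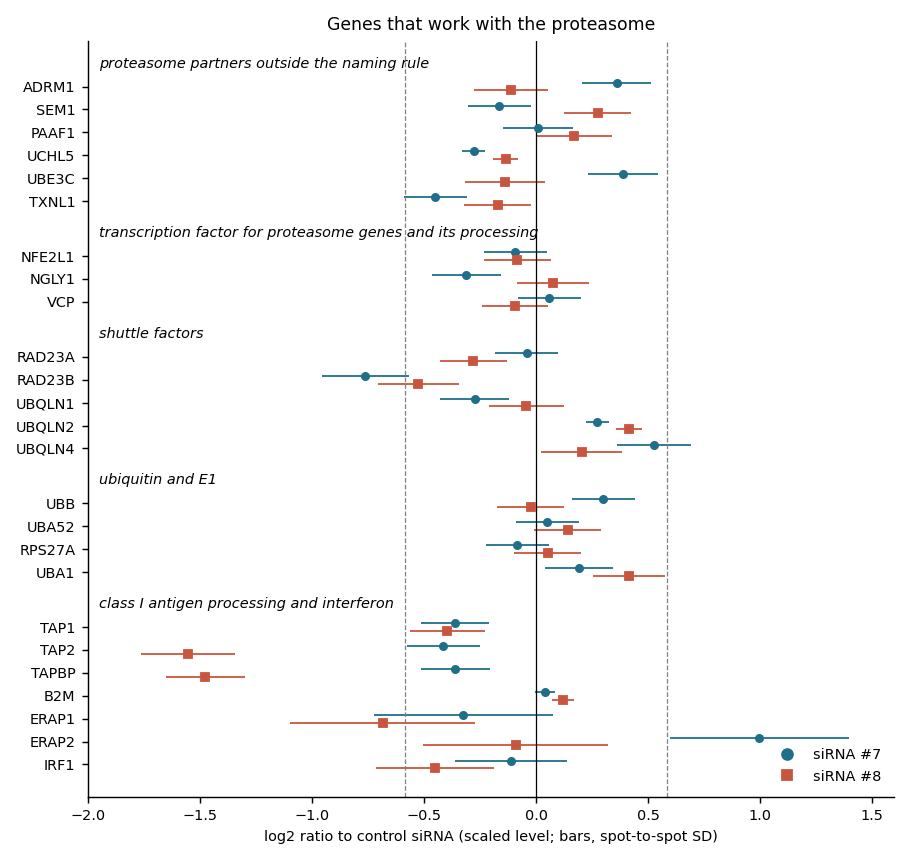
Log2 ratio to control siRNA of the 25 measured genes that work with the proteasome, by list, with siRNA #7 (circles) and siRNA #8 (squares); bars are the spot-to-spot SD and dashed lines mark 1.5-fold. *RAD23B* lies left of the line with siRNA #7 (−0.76), and *TAP2* (−1.56) and *TAPBP* (−1.48) lie far left with siRNA #8.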

How the data were processed

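HCT116 cells were measured on SurePrint G3 Human arrays (Agilent), 1 array for each of control siRNA, siRNA #7 and siRNA #8. The deposited spot files, made with Agilent Feature Extraction 11.5.1.1, hold an intensity from which the local background had been subtracted and which was not scaled across arrays. A second deposited table holds log2 values that the authors centred on the median of each probe, and served as an alternative. The arrays lie on the same slide and were scanned together. In Python 3.11.15 with numpy 2.4.6 and pandas 2.3.3, outlier-flagged spots were dropped, spots of a probe were averaged, and intensities were divided by the 75th percentile of the array. A probe passed when at least 50% of its spots were well above background on each array, and the brightest passing probe stood for a gene. Probes were named through RefSeq accessions (GRCh38.p14). The spot-to-spot SD came from probes printed on 10 spots, pooled in 6 ranges of signal, and its square was divided by the number of spots averaged. A call was a ratio of 1.5-fold. The scripts were tested on simulated data.

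The members, lists and alternatives were chosen with earlier results of these data known. Named were the catalytic, activator, inhibitor, core assembly, ubiquitin receptor and deubiquitinase genes, members past 1.5-fold with either siRNA, the highest and lowest member of each role by mean ratio, members whose probes differed by 0.5 with opposite signs, and other pathway genes past 1.5-fold with both siRNAs. *PSMA5*, *PSMD2*, *PSMD5*, *PSMD6* and *PSMD7*, *TAP1*, *TAP2*, *TAPBP*, *ERAP1*, *ERAP2*, *B2M*, *IRF1*, *RAD23B* and *NFE2L1* were added after their values were seen. Alternatives were quantile normalization, the array median, the 75th percentile over detected probes, 10 E1A spike-in probes, the deposited log2 values, normexp (offset 50) on median spot signals, removal of the median deviation of neighbouring spots (within 3 rows and columns), the mean of a gene's probes, probes above background on any array, a 2-fold threshold and limma 3.58.1 (R 4.3.3) with both siRNA arrays joined. Taking probes above background on any array left every member value as reported, and averaging probes could not change a member with 1 passing probe. The number of arrays limits the precision. Some genes of the pathway lists are not reported here.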

Additional observations from a re-analysis of the deposited data

How the results depend on the processing

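No paired analysis was possible because the groups hold 1 array each. The members' median stayed below 0 with both siRNAs under all 9 settings of the processing, moving most with spike-in scaling (−0.44 with siRNA #7, −0.31 with siRNA #8) and with normexp (−0.29 with siRNA #7). The count past 1.5-fold with siRNA #7 (1 as reported) was 2 with the array median and 10 with spike-in scaling, and with normexp the 1 gene was *PSMG1* (−0.60) in place of *POMP*. With siRNA #8 (5 as reported) it was 2 with the 75th percentile over detected probes, 2 with neighbouring spots removed, 3 with the probes of each gene averaged and 1 at 2-fold. The 2 genes in the first of these, and in the second, were *PSMB9* and *PSMG4*. Spike-in scaling also moved the median of all genes, to −0.31 with siRNA #7. The shares of all genes past 1.5-fold under the alternatives are not given, so the changes in these counts show nothing particular to the members. The mean difference of immunoproteasome and constitutive subunits with siRNA #8 was −0.21 with neighbouring spots removed. *PSMD9* reversed to 0.11 with neighbouring spots removed and *PSMA1* to 0.19 with the mean of its probes, both with siRNA #8. The limma fit, which assumes that the control array varies like the siRNA arrays, called 0 member probes, and 0 had an unadjusted p under 0.05, beside 664 of all 18121 probes. Of the other values of named members under an alternative, 375 stayed within the spot-to-spot SD and 109 moved further without reversing a call. Part of the 375 was fixed beforehand, since taking probes above background on any array left every member value as reported. Averaging probes could not move the 34 members with 1 passing probe, and the deposited values differ little from the reported scaling. The causes of the moves were not tested. Where signal over background was low, so was the precision, with a spot-to-spot SD of 0.40 for the dim probe of *PSMC2* and 0.14 for its bright one with siRNA #7.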
